A study of Mus musculus with 272 samples.

Results

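The regions described here are 1174 H3K27ac peaks of mouse muscle stem cells (MuSCs) that lay between genes and away from other peaks of the same mark. They were chosen by the 2 H3K27ac peak lists themselves and by position against the GENCODE M21 annotation of mm10. Of the 24209 peaks of H3K27ac replicate 1 on the 21 assembled chromosomes, 15627 shared at least 1 bp with a peak of replicate 2. Among these, 11586 came within 3 kb of an annotated transcription start site and are called promoter peaks, and 4041 lay farther away and are called distal. Distal peaks separated by gaps of at most 12500 bp were linked, and the 1020 peaks in clusters of 3 or more are called clustered. The isolated peaks, alone or in a pair, comprised 1847 that overlapped the body of an annotated gene of any type and the 1174 that overlapped none, of which 759 were single and 415 belonged to a pair. Because H3K27ac and position chose them, the number of these isolated intergenic peaks, their H3K27ac values and their distances are given as descriptions with no test.

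The study followed Cas9 repair outcomes in MuSCs in vivo, and 8 of its 272 samples mapped the chromatin of these cells, with 2 replicates each of ATAC-seq, H3K4me3, H3K27me3 and H3K27ac. All 8 libraries came from GFP+ MuSCs sorted from digested hindlimb muscle of Pax7Cas9 mice, in which Pax7Cre recombines a Rosa26 Cas9-EGFP allele, so that every library carries both alleles and Cas9 and EGFP are limited to cells with Pax7-driven Cre and their descendants. The labels of these libraries give neither an age nor a treatment, and they do not say whether replicates came from separate animals, so that the spread between replicates may be technical. A peak in a sorted population does not tell a mark carried by few cells from a weak mark in many. On the assembled chromosomes the lists held 140716 and 94382 ATAC-seq peaks, 20512 and 18001 H3K4me3 peaks, 6064 and 10458 H3K27me3 peaks and 24209 and 18584 H3K27ac peaks in replicates 1 and 2, and as they give no read numbers the depth behind each peak is unknown. The cells were checked against marker genes by an H3K27ac peak within 3 kb of a start site in both replicates, which 46.6% of all protein-coding genes had. Such a peak was present for 12 of 13 MuSC markers, 3 of 10 fibro-adipogenic, 1 of 10 endothelial, 1 of 9 blood, 3 of 10 myofibre and 1 of 10 neuron markers.

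H3K27ac is a histone acetylation found at active promoters and enhancers, whereas H3K4me3 is strongest at promoters and H3K27me3 marks genes repressed by Polycomb complexes. Enhancers are short stretches of open DNA where transcription factors bind, and the histones that flank the bound stretch carry the acetylation. In MuSCs, the myogenic factors *Myod1* and *Myf5* bind E-box motifs together with E proteins, and AP-1, a dimer of Fos and Jun proteins that responds to signals such as those set off by tissue dissociation or injury, binds its own motif at many distal elements.

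The sequences that follow show the ATAC-seq summits, the most open bases, of peaks that overlap 8 members. Each is 200 bases of mm10 around the summit of the strongest replicate 1 ATAC-seq peak on the member, read on the forward strand from the RefSeq copy of the assembly (GRCm38.p6) and named by the nearest protein-coding gene. They were taken from members singled out for the highest H3K27ac fold enrichment (*Zfp869*, *Tpt1*), the strongest H3K4me3 (*Pum2*, *Nr2f2*), the greatest width (*Ahnak*, *Cirbp*) and the greatest distance from any GENCODE start site (*Vstm2a*, *Map3k7*). Capitals mark matches on either strand to AP-1 (TGANTCA), the myogenic E-box (CAGCTG), RUNX (TGTGGT), TEAD (GGAATG) and the nuclear factor I site (TTGGCA).
Zfp869 region: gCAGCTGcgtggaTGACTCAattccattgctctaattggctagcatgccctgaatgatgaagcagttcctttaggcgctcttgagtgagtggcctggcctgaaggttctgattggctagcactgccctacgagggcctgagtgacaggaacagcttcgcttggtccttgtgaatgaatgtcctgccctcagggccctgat
Tpt1 region: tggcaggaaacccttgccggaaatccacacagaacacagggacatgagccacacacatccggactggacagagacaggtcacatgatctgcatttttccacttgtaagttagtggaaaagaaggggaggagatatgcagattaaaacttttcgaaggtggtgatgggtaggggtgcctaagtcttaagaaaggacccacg
Pum2 region: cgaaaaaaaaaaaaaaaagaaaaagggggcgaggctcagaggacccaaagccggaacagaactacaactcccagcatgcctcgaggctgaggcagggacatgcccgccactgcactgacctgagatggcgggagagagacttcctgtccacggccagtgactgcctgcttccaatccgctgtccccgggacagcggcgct
Nr2f2 region: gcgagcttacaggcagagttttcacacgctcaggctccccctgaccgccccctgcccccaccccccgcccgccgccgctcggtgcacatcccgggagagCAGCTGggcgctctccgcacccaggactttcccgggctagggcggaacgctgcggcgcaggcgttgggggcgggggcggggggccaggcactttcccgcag
Ahnak region: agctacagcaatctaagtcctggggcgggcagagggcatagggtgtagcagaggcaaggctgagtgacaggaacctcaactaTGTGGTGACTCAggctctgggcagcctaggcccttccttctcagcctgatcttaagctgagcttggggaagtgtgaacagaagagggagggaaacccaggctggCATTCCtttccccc
Cirbp region: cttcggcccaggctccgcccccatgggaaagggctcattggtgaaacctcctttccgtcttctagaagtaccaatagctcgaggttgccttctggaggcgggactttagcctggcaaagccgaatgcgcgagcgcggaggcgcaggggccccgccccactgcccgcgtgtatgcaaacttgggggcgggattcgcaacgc
Vstm2a region: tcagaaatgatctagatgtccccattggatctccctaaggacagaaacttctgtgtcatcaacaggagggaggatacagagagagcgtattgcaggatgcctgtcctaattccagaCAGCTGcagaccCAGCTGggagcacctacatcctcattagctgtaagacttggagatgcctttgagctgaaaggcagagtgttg
Map3k7 region: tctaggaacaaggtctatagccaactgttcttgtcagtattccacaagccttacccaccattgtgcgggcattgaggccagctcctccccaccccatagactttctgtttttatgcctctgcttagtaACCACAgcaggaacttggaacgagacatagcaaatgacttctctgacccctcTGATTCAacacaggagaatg
The windows lie at chr8:69716998-69717197 (*Zfp869*), chr14:75834291-75834490 (*Tpt1*), chr12:8640723-8640922 (*Pum2*), chr7:70350924-70351123 (*Nr2f2*), chr19:8983391-8983590 (*Ahnak*), chr10:80159933-80160132 (*Cirbp*), chr11:15770289-15770488 (*Vstm2a*) and chr4:31642767-31642966 (*Map3k7*). All 8 members lie outside annotated gene bodies by the rule. The *Zfp869*, *Ahnak* and *Map3k7* windows hold 1 AP-1 match each, the *Vstm2a* window 2 myogenic E-boxes, the *Zfp869* and *Nr2f2* windows 1 each, and in the *Ahnak* window a RUNX match runs directly into the AP-1 match. The *Nr2f2* window holds 20 CpG dinucleotides and is 74.5% GC, the *Cirbp* window 17 and 63.5%, and the *Pum2* window 11 and 58.5%, and none of these 3 has an AP-1 match. The summit of the *Zfp869* window lies beyond the end of its member (chr8:69715515-69717003). The *Vstm2a* window holds 1 CpG and is 49% GC, and its summit also lies beyond the end of the H3K27ac peak that the ATAC-seq peak overlaps (chr11:15769670-15770000).

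The isolated intergenic peaks were short and moderately enriched. Their median width was 638 bp, against 599 bp for isolated gene-body, 643.5 bp for clustered and 1067 bp for promoter peaks, and they ranged from 205 to 3938 bp. Fold enrichment, the authors' ratio of the H3K27ac signal at the summit to the local background, had a median of 6.13 in replicate 1 and 5.49 in replicate 2, near the 5.74 and 5.15 of gene-body and the 5.76 and 5.15 of clustered peaks and below the 11.9 and 9.93 of promoter peaks. The highest values were 54.1 and 47.4. Although members made up 29.1% of distal peaks, they were 43 of the 100 distal peaks that ranked highest by the lower replicate's fold enrichment, beside 34 gene-body and 23 clustered peaks. Across the 1069 members with a single replicate 2 counterpart, fold enrichments of the replicates followed each other with a Spearman rho of 0.623, against 0.483 for gene-body, 0.569 for clustered and 0.896 for promoter peaks, and 34 members differed more than 2-fold. Both values of a pair come from separate libraries of the same cell type and share the local sequence.

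**Figure D1:**
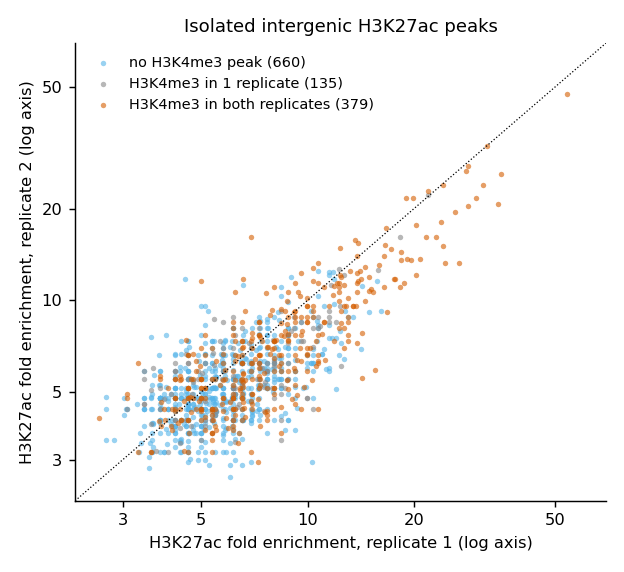
H3K27ac fold enrichment of the 1174 isolated intergenic peaks in replicate 1 (x axis) and replicate 2 (y axis), both on log axes, with the dotted line marking equal values and 1 point per peak coloured by whether an H3K4me3 peak overlapped in both (379), 1 (135) or neither (660) replicate. The peaks above 20-fold in both replicates, up to 54.1 and 47.4, all overlap an H3K4me3 peak in at least 1 replicate, whereas those with none reach at most 16.1 in replicate 1.

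Members lay a median of 14725 bp from the nearest start site of any gene and 31408 bp from that of the nearest protein-coding gene. By the nearest start site, 438 members were at 3 to 10 kb, 594 at 10 to 50 kb, 115 at 50 to 100 kb and 27 beyond 100 kb. The farthest 2 were the *Vstm2a* region, 267793 bp from any GENCODE start site with fold enrichments of 5.15 and 4.6, and chr4:31642440-31642900, 261968 bp away with 6.52 and 4.92 and nearest to *Map3k7*, the kinase TAK1. In the RefSeq annotation the nearest start lay 317248 bp from the first and 130379 bp from the second. At the 3 kb limit of the rule, the 3 members just inside lay 3013, 3022 and 3077 bp from a start site with replicate 1 fold enrichments of 6.34, 5.18 and 14.3, and the 3 peaks just outside lay at 2993, 2990 and 2938 bp with 6.13, 18.3 and 8.05. At the limit for linking, the closest single members were 12655, 12908 and 12911 bp from the next distal peak with fold enrichments of 8.05, 4.23 and 6.39, and the 3 peaks that a gap just below the limit placed in a cluster had gaps of 12269, 12269 and 12226 bp with 5.13, 9.4 and 7.67. Members were found on every assembled chromosome. Their density ran from 0.688 per Mb on chromosome 11 and 0.639 on chromosomes 4 and 13 down to 0.076 on chromosome X. Chromosome Y held 1 member, near *Uba1y*, or 0.0109 per Mb. Replicated H3K27ac peaks of all classes were also fewest on the sex chromosomes, with 298 on X and 3 on Y. Of these, 25 and 1 were distal.

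Pairs were mostly neighbours across a narrow gap. The 415 paired members formed 202 pairs of members, and 11 members were paired with a gene-body peak. The gap within a pair had a median of 356.5 bp (147 to 12182 bp), and 126 pairs (62.4%) had a gap under 1 kb. In these 126 pairs the gap was touched by an ATAC-seq peak in 109 (86.5%) in replicate 1 and in 106 (84.1%) in replicate 2, shares near the 86% and 85.4% of all members that overlapped an ATAC-seq peak. In 38 pairs (18.8%) both members overlapped the same replicate 2 H3K27ac peak, and in 45 and 53 pairs they had the same strongest ATAC-seq peak in replicates 1 and 2. The 1174 members are therefore not 1174 independent elements.

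The members strongest in H3K27ac nearly all carried H3K4me3 as well. The member with the highest fold enrichment in both replicates, chr8:69715515-69717003, lay 4791 bp from the nearest GENCODE start site, that of the zinc-finger gene *Zfp869*, but held a *Zfp869* transcript start in the RefSeq annotation, and it had H3K4me3 fold enrichments of 38.5 and 24.9 and ATAC-seq fold enrichments of 19.8 and 20.1. Next came chr14:75833967-75835594 near *Tpt1*, which encodes the translationally controlled tumour protein, with H3K27ac of 32.2 and 32 and weaker H3K4me3 of 10.2 and 5.81. The third, chr4:8646846-8648445, lay 41961 bp from *Chd7*, a chromatin remodeller, with H3K27ac of 28.4 and 27.6 and H3K4me3 of 21.6 and 13. Of the 10 members highest by the lower replicate, 9 overlapped an H3K4me3 peak in both replicates. The exception, chr8:25273805-25275042 near *Tacc1*, had H3K27ac of 22 and 22.1 and an H3K4me3 peak of 3.28 in replicate 1 only. The strongest H3K4me3 on any member was at chr12:8640711-8641468 near *Pum2*, which encodes an RNA-binding repressor, with 49.4 and 38.6 beside H3K27ac of 28.1 and 26.6. At chr7:70350951-70351837 near the nuclear receptor gene *Nr2f2*, H3K4me3 reached 30.9 and 24.4 while H3K27ac was 8.43 and 4.48, so that the order of members by the marks was not the same.

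Open chromatin was found on most members. An ATAC-seq peak overlapped 1010 members (86.0%) in replicate 1 and 1003 (85.4%) in replicate 2, which gives 85.7% ± 0.422 (SD, n = 2). In both replicates it was present on 976 members (83.1%), against 88.7% of all replicated H3K27ac peaks, in 1 replicate on 61 and in neither on 137 (11.7%). The share was 76.9% and 77.2% for gene-body and 71.6% and 71.6% for clustered peaks, and 94.1% in both replicates for promoter peaks. Members thus exceeded gene-body peaks by 8.69 percentage points (SD 0.575 over replicates) and clustered peaks by 14.2 points (SD 0.422), differences larger than the spread between replicates. The two-sided exact permutation p was 0.33 for each, the smallest that 2 shares against 2 allow. Both classes were measured in the same 2 libraries, which this unpaired form ignores. The paired exact permutation p was 0.5 for each, also the smallest possible, so that no difference between classes can pass 0.05 in this design. The lead over gene-body peaks shrank to 2.9 points when peaks below a −log10 q of 5 were dropped and to 3.02 points when an ATAC-seq peak within 500 bp sufficed, and that over clustered peaks to 7.85 and 7.36 points.

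**Figure D2:**
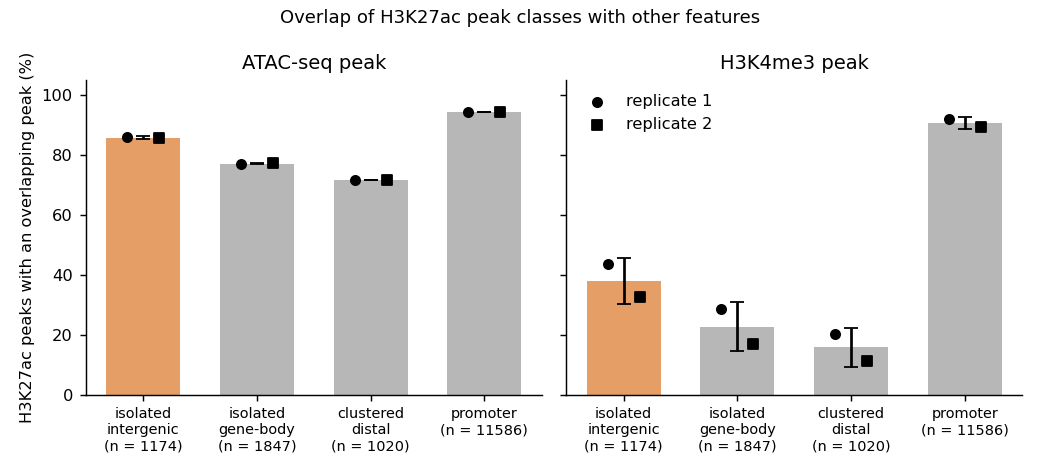
Share of H3K27ac peaks of each class (x axis, n below each bar) that overlapped an ATAC-seq peak (left) or an H3K4me3 peak (right), in percent; bars are the mean of both replicates, symbols the replicates and error bars the SD (n = 2). Isolated intergenic peaks lie at 86.0% and 85.4% for ATAC-seq and at 43.4% and 32.6% for H3K4me3, above both other distal classes and below promoter peaks.

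The members without ATAC-seq in either replicate were weaker and narrower, with a median H3K27ac fold enrichment of 4.75 and 4.57 and a median width of 390 bp, against 6.52, 5.52 and 711.5 bp for members with ATAC-seq in both. Their nearest ATAC-seq peak lay a median of 117 bp from the member's edge in replicate 1 and 121 bp in replicate 2, and for 113 of 137 (82.5%) it lay within 1 kb. When members were ranked by the lower of both H3K27ac fold enrichments, the ATAC-seq share was 74.0% and 74.0% among the lowest 296 and 96.9% and 96.6% among the highest 294. Width went with it, from a median of 430 to 1062 bp, and with a fixed window of 600 bp on every H3K27ac summit, an alternative chosen after seeing the data, the same members gave 83.4% and 82.8% against 95.2% and 94.6%. The strength of the ATAC-seq peak followed that of H3K27ac only loosely, with a Spearman rho of 0.182 over 1010 members and 0.135 over 1003. More than 1 ATAC-seq peak lay on 497 members (42.3%) in replicate 1 and on 395 (33.6%) in replicate 2, with at most 7 and 6 on 1 member. The summits of the marks did not coincide, as the strongest ATAC-seq summit lay a median of 248 and 270 bp from the H3K27ac summit, and within 150 bp of it in 24.9% and 20.5% of members.

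H3K4me3 divided the members. It overlapped 510 (43.4%) in replicate 1 and 383 (32.6%) in replicate 2, or 38% ± 7.65 (SD, n = 2), and was present in both replicates on 379 (32.3%), against 71.2% of all replicated H3K27ac peaks, in 1 on 135 and in neither on 660 (56.2%). Gene-body peaks gave 28.6% and 16.8% and clustered peaks 20.3% and 11.2%, whereas promoter peaks gave 92.0% and 89.3%. Within each replicate members exceeded gene-body peaks by 14.9 and 15.8 points (mean 15.3, SD 0.658) and clustered peaks by 23.2 and 21.4 points (mean 22.3, SD 1.2; two-sided exact permutation p = 0.33 for each, the smallest possible). The replicates differed by more in level than in these differences, and the H3K4me3 list of replicate 2 was also the shorter one. Where present, the mark was weak compared with promoters, with a median fold enrichment of 6.58 and 5.93 on members against 26.6 and 19.2 on promoter peaks and 4.67 and 4.5 on gene-body peaks.

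Members with H3K4me3 in both replicates also had stronger H3K27ac, with medians of 7.45 and 6.49 against 5.75 and 4.97 for members with none. The 294 members highest in H3K27ac had H3K4me3 on 68.7% and 59.2%, the lowest 296 on 30.1% and 18.6%. ATAC-seq peaks overlapped 94.5% and 91.3% of members with H3K4me3 in both replicates, against 80.0% and 80.9% of those with none. Single members carried H3K4me3 more often than paired members, 49.7% and 38.7% against 32.1% and 21.4%. The share fell with distance from a start site, from 50.2% and 38.4% at 3 to 10 kb over 41.3% and 31.1% at 10 to 50 kb and 35.7% and 24.3% at 50 to 100 kb to 14.8% and 7.41% of the 27 members beyond 100 kb. In the same bins the ATAC-seq share was 87.0% and 85.8%, 86.0% and 85.5%, 84.3% and 85.2%, and 77.8% and 77.8%.

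Base composition separated the groups as well. The ratio of observed to expected CpG dinucleotides in the peak, which is low in most of the genome and high in CpG islands, had a median of 0.469 in members with H3K4me3 in both replicates, 0.302 in those with it in 1 and 0.207 in those with none. A ratio of at least 0.6 was reached by 113 members (9.62%), against 3.36% of gene-body, 1.86% of clustered and 66.9% of promoter peaks. Of these 113 members, 106 had H3K4me3 in both replicates, 2 in 1 and 5 in none, and their median H3K4me3 fold enrichment was 15.4 and 10.4. Conversely, 106 of the 379 members with H3K4me3 in both replicates (28%) and 5 of the 660 without it (0.758%) had such a ratio.

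**Figure D3:**
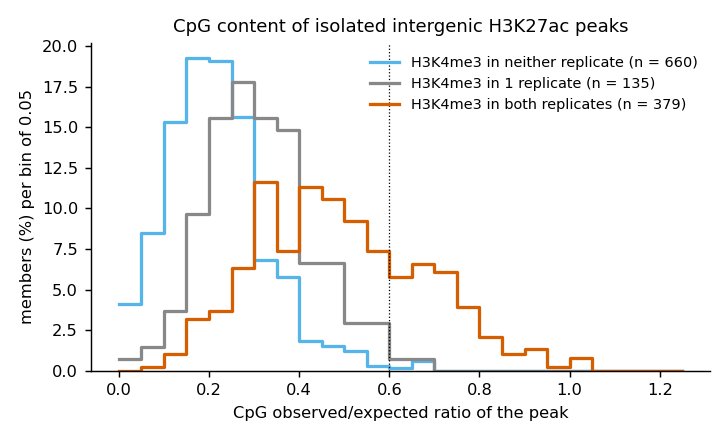
Distribution of the observed to expected CpG ratio (x axis, bins of 0.05, dotted line at 0.6) over isolated intergenic H3K27ac peaks with an H3K4me3 peak in neither (660), 1 (135) or both (379) replicates, in percent of the peaks of each group (y axis). The medians are 0.207, 0.302 and 0.469, and 106 of the 113 peaks at or beyond 0.6 had H3K4me3 in both replicates.

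The annotation bears on this division. In RefSeq, which was not used by the rule and was looked up after seeing the data, 150 members (12.8%) had a transcript start within 3 kb, and in 39 (3.32%) the start lay in the peak. A RefSeq start within 3 kb was found for 8.45% of gene-body, 9.61% of clustered and 71.95% of all replicated peaks, and a start in the peak for 1.68%, 1.27% and 54.8%. For 134 of the 150 the nearest such transcript was a predicted model, and for 123 it was noncoding. A RefSeq start within 3 kb was found for 75 of the 379 members with H3K4me3 in both replicates and for 56 of the 660 with none. Without the 150 members, H3K4me3 overlapped 35.4% ± 7.73 (SD, n = 2) of the rest, against 38% of all members. Within replicate 1 the share went from 43.4% to 40.8% and within replicate 2 from 32.6% to 29.9%. The name enhancer is therefore not used here for all members, since those with strong H3K4me3, many CpG or a RefSeq start have features of promoters.

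H3K27me3 was nearly absent from members, as from all replicated H3K27ac peaks. A peak overlapped 4 members (0.341%) in replicate 1 and 1 (0.0852%) in replicate 2, against 0.314% and 0.269% of all replicated peaks. The H3K27me3 lists were called to a looser limit than the others, and their peaks had a median width of 176 and 180 bp. The 1 member with the mark in both replicates, against 0.147% of all replicated H3K27ac peaks, was chr6:52252882-52253773, which lay 7029 bp from *Hoxa13*, a homeobox gene of the distal limb. It had fold enrichments of 5.63 and 5.83 in H3K27me3, 6.1 and 4.21 in H3K4me3, 6.13 and 3.87 in H3K27ac and 6.42 and 3.95 in ATAC-seq, and a CpG ratio of 0.745. The other 3 members, near *Gtdc1*, *Eef1a1* and *Ccn6*, had replicate 1 peaks of 3.61, 3.0 and 3.0 and none in replicate 2.

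Motifs were searched in 300 bases around summits, on both strands and for 24 short motifs, and set beside 132381 windows of the same length placed every 20 kb along the genome. Windows that held an unknown base were left out. Around the ATAC-seq summit of members, the AP-1 motif was present in 320 of 1008 windows (31.7%) in replicate 1 and in 328 of 1002 (32.7%) in replicate 2, against 8.94% of the genome windows, and the myogenic E-box in 45.2% and 46.4% against 10.6%. The windows of members were 53.5% and 53.6% GC on average and those of the genome 41.7%, and the part of base composition in these differences was not tested. Both motifs together were found in 13.6% and 14.5% of windows and neither in 36.6% and 35.3%. Gene-body peaks gave 34.1% ± 0.678 (SD, n = 2) for AP-1 and 49.0% ± 0.35 for the myogenic E-box, clustered peaks 35.3% ± 2.13 and 48.9% ± 0.581, and promoter peaks 8.57% ± 0.117 and 20.0% ± 0.227, beside 32.2% ± 0.699 and 45.8% ± 0.827 for members. RUNX (20.1% and 21%, genome 20.0%) and TEAD (19.6% and 20.9%, genome 15.9%) stood closer to the genome windows, and the Pax homeodomain motif TAATNNATT, rich in A and T, was below them (1.79% and 1.1%, genome 6.65%).

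The matches were concentrated at the point of greatest openness. Within 25 bp of the ATAC-seq summit there were 6.3 and 6.39 AP-1 matches per 100 members and 25 bp in replicates 1 and 2, against 1.19 and 0.949 at 150 to 250 bp, a ratio of 5.29 and 6.74. For the myogenic E-box the values were 8.53 and 9.54 against 2.47 and 2.44, a ratio of 3.46 and 3.92. RUNX and TEAD matches showed little of this, with ratios of 1.19 and 1.48 and of 1.27 and 1.51. Around the H3K27ac summit the order was the opposite, with 0.767 and 0.341 AP-1 matches near the summit against 2.0 and 1.79 at 150 to 250 bp, and 2.34 and 2.47 against 3.38 and 3.6 for the E-box. The choice of summit accordingly decided the share of members with a motif, as 300 bases around the replicate 1 H3K27ac summit held AP-1 in 7.92% and the myogenic E-box in 25.4% of the 1174 members.

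**Figure D4:**
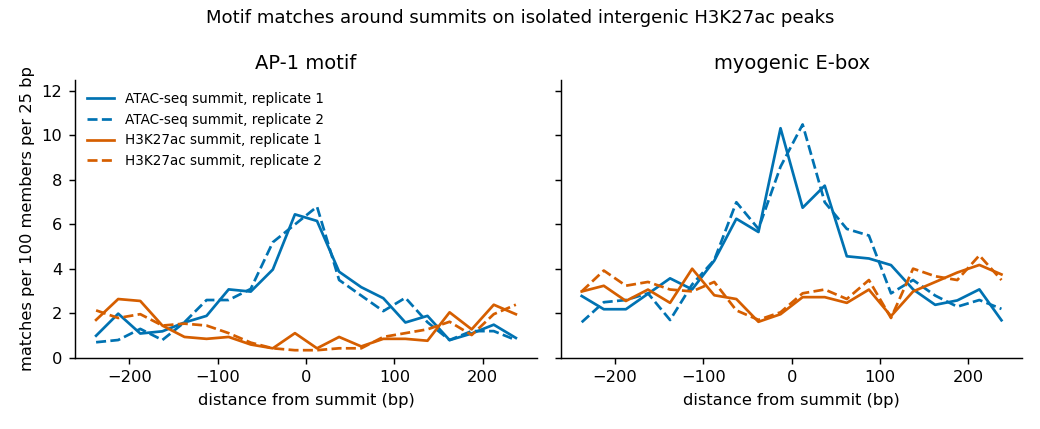
Matches to the AP-1 motif (left) and the myogenic E-box (right) per 100 isolated intergenic peaks and 25 bp (y axis) against the distance from the summit in bp (x axis), around ATAC-seq (blue) and H3K27ac (orange) summits of replicate 1 (solid) and replicate 2 (dashed). Within 25 bp of the ATAC-seq summit AP-1 reaches 6.3 and 6.39 and the E-box 8.53 and 9.54, whereas around the H3K27ac summit both are lower at the centre than at 150 to 250 bp.

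The motifs differed with H3K4me3. Around ATAC-seq summits, AP-1 was present in 43.1% and 43.2% of windows of members with no H3K4me3, in 26% and 29.3% of those with it in 1 replicate and in 17% and 17.9% of those with it in both. The myogenic E-box went the same way, from 54.1% and 56.5% over 51.2% and 51.2% to 30.2% and 29.2%, and the combination of both motifs from 19.9% and 21.4% in members with none to 5.03% and 4.91% in members with H3K4me3 in both. In the opposite direction, the GGGCGG box bound by Sp and Klf factors rose from 7.97% and 6.94% over 17.9% and 17.9% to 38.8% and 39.9%, on the way to the 67.5% and 67.8% of promoter peaks. The ETS motif CCGGAAG was present in 2.47% and 2.06% of windows without and in 8.38% and 7.23% of windows with H3K4me3 in both. Each of these gaps between the groups was larger than the spread between the 2 ATAC-seq libraries. Both libraries were read against the same mm10 sequence on largely the same members. Their spread therefore reflects where summits were called, not variation between members. The windows were 51.2% and 51.3% GC without and 56.8% and 57.2% GC with H3K4me3 in both replicates. Among members with a CpG ratio under 0.6, AP-1 was at 43% ± 0.0561 without H3K4me3 and at 19.6% ± 0.501 with it in both, and the myogenic E-box at 55.4% ± 1.69 and 34.1% ± 0.265 (SD, n = 2). These windows still differed in GC content, with 51.2% and 51.3% without and 55% and 55.5% with H3K4me3 in both, and the part of base composition in the motif shares was not tested. The GGGCGG and CCGGAAG motifs each contain a CpG. Members had a median CpG ratio of 0.207 without and 0.469 with H3K4me3 in both, and its part in these motif shares was not tested.

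**Figure D5:**
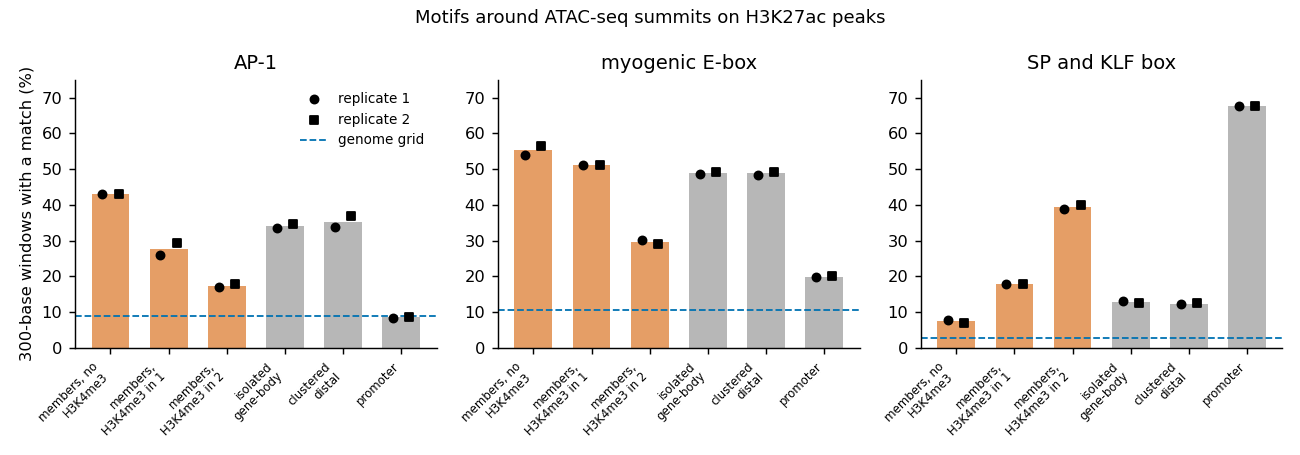
Share of 300-base windows around ATAC-seq summits with a match to AP-1 (left), the myogenic E-box (middle) or the Sp and Klf box (right), in percent (y axis), for isolated intergenic peaks by the number of replicates with H3K4me3 (orange) and for the other classes (grey); bars are the mean of both replicates, symbols the replicates and the dashed line the genome windows. AP-1 goes from 43.1% and 43.2% with no H3K4me3 to 17% and 17.9% with it in both replicates, and the Sp and Klf box from 7.97% and 6.94% to 38.8% and 39.9%.

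Paired members held AP-1 more often than single members, in 41.6% and 43.5% of windows against 26.7% and 27.1%, and the myogenic E-box in 49.4% and 50.7% against 43.1% and 44.1%. As 45 and 53 pairs have the same strongest ATAC-seq peak, some windows of paired members are counted more than once. H3K4me3, with which both motifs differed, was also rarer on paired members, at 32.1% and 21.4% against 49.7% and 38.7%. Its part in these motif shares was not tested.

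The nearest protein-coding genes numbered 838, which is 3.82% of all 21938, and 604 of them were nearest to 1 member, 171 to 2 and 63 to 3 or more. Members lay upstream of the nearest gene in 723 cases (61.6%), against 36.8% of gene-body and 37.6% of clustered peaks, a share that the rule itself affects since it leaves out gene bodies. *Chd7* had the most, 7 members between 41961 and 202451 bp from its start sites, all with ATAC-seq in both replicates and 3 with H3K4me3 in both. Their H3K27ac fold enrichments ranged from 4.22 to 28.4 in replicate 1 and from 5.52 to 27.6 in replicate 2. *Irf2bp2*, a transcriptional corepressor, *Qk*, an RNA-binding regulator of splicing, and *Trib1*, a pseudokinase, had 6 each. The wide member chr8:126665472-126668830 near *Irf2bp2* reached 18.4 and 14.4, and all 6 members near *Trib1* lay downstream of it. *Med13l* of the Mediator complex, *Spsb1* and *Tent4a* had 5 each, and *Cd83*, *Cep85l* and the chemokine receptor gene *Cxcr4* were the first 3 in alphabetical order of the genes with 4. Of these 10 genes, 9 had an H3K27ac promoter peak in both replicates, and the exception was *Cd83*, an immune surface protein.

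An H3K27ac promoter peak of the nearest protein-coding gene was found for 78.5% of members in replicate 1 and 73.6% in replicate 2, or 76.1% ± 3.49 (SD, n = 2), and in both replicates for 857 members (73%). Counted by gene, this was 588 of 838 (70.2%) against 46.6% of all protein-coding genes. Gene-body peaks with 84.8% and clustered peaks with 84.0% in both replicates were above members. H3K27me3 at the promoter of the nearest gene in both replicates was found for 36 members (3.07%) and 33 genes (3.94%), close to the 4.81% of all protein-coding genes. The nearest gene is a matter of position and says nothing of which gene a region acts on.

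Some myogenic and MuSC genes were among the nearest. Of 13 MuSC markers, 4 (30.8%) were nearest to a member, namely *Myod1*, *Chrdl2*, *Spry1* and *Heyl*. The share was 30% for fibro-adipogenic markers, 3 of 10, and 3.82% for all protein-coding genes. Of 26 myogenic and premyogenic transcription factors 6 were nearest to a member, among them *Myod1*, *Myf6*, *Eya4* and *Lbx1*. The member of *Myod1*, the master regulator of myogenic commitment, was chr7:46353004-46353224, which lay 23250 bp upstream of the gene with H3K27ac of 6.77 and 4.69, ATAC-seq of 2.84 and 8.81 and no H3K4me3. *Spry1*, an inhibitor of growth factor signalling needed for return to quiescence, had 3 members 13669 to 32512 bp downstream, all with ATAC-seq in both replicates and none with H3K4me3 in both. The strongest of them, chr3:37653749-37654829, had H3K27ac of 9.58 and 8.46 and ATAC-seq of 19.2 and 20.2. *Heyl*, a Notch effector, had a pair 5206 and 7562 bp upstream with H3K27ac of 10.2 and 6.23 and of 6.52 and 6.25. *Six2*, a homeodomain factor gene of the same list, had 1 member 44400 bp away with no ATAC-seq peak in either replicate. The *Six2* promoter had ATAC-seq, H3K4me3, H3K27ac and H3K27me3 peaks in both.

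Signal-responsive and Notch genes were also among the nearest. Of 20 AP-1 and early response factors 5 were nearest to a member, *Fos*, *Jun*, *Klf4*, *Klf6* and *Nr4a1*. The *Fos* member, chr12:85454508-85456299, lay 17591 bp upstream with H3K27ac of 10.4 and 12.7, ATAC-seq of 15.4 and 14.7 and H3K4me3 of 7.64 and 4.73. The pair upstream of *Nr4a1*, a nuclear receptor gene, had the same strongest ATAC-seq peak on both members, with 17 and 17.4, and H3K27ac of 5.75 and 8.46 and of 4.75 and 6.68. *Klf6* had 4 members, of which chr13:6191781-6193764, 327103 bp away, reached 14.9 and 9.14. Of 18 Notch pathway genes 4 were nearest, *Dll4*, *Rbpj*, *Hey1* and *Heyl*. The CpG-rich *Dll4* member, chr2:119337727-119338195, had H3K4me3 of 13.4 and 9.79. The promoter of this ligand gene had ATAC-seq, H3K4me3 and H3K27me3 peaks in both replicates and no H3K27ac peak. *Rbpj*, the DNA-binding effector of Notch, had 3 members upstream, 2 of them with ATAC-seq in both replicates.

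Of 16 Runx, Nfi and TALE factors 2 were nearest to a member (*Runx1*, *Runx3*), of 20 forkhead, circadian and nuclear receptor genes 3 (*Foxo1*, *Rora*, *Nr3c1*), of 20 niche matrix genes 6 (*Col3a1*, *Col4a1*, *Col5a1*, *Col5a2*, *Col6a2*, *Col15a1*) and of 25 growth factor signalling genes 7 (*Spry1*, *Spry2*, *Hgf*, *Pdgfra*, *Tgfbr2*, *Id2*, *Id3*). *Id2*, an inhibitor of bHLH factors, had a member 3077 bp upstream with H3K4me3 of 19.6 and 12.8 and no ATAC-seq peak. The replicate 1 H3K4me3 peak, chr12:25098208-25101320, extended beyond this member toward the gene, so its value need not come from within the member. Another *Id2* member lay 13424 bp upstream with ATAC-seq of 15.9 and 17.4 and no H3K4me3. Both members had H3K27ac between 6.68 and 11. The 8 collagen members had no H3K4me3 peak in either replicate, the state of 660 of all 1174 members (56.2%). Of the 8, 2 were a pair near *Col5a2*. Among markers of other cells, 3 of 10 fibro-adipogenic genes (*Pdgfra*, *Dcn*, *Col15a1*), 1 of 10 endothelial (*Emcn*) and none of 9 blood, 10 myofibre and 10 neuron genes were nearest to a member. The *Dcn* member, chr10:97313057-97314098, was 165511 bp from the gene with H3K27ac of 12.1 and 11.4, H3K4me3 of 13.7 and 6.93 and ATAC-seq of 14.3 and 15.6, whereas the *Dcn* promoter itself had no peak of any of the 4 features in either replicate. These counts stand beside 3.82% of all protein-coding genes being nearest to a member, and they are not tests of the lists.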

How the data were processed

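Per the study's methods, the authors trimmed reads with Trim Galore 0.6.10, aligned them to mm10 with BWA 0.7.17-r1188, removed low-quality and duplicate reads with SAMtools 1.5 and Sambamba, removed blacklisted regions with BEDTools, corrected the Tn5 offset of ATAC-seq with deepTools 3.5.5 and called peaks per library with MACS2 2.2.6. The deposited lists give the authors' fold enrichment at the summit, a ratio to the local background, and, as −log10, the p-value and the q-value that the authors obtained. They hold no read numbers, so no interval that needs depth is given. Inputs and editing samples were not analysed here.

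Overlap was counted from 1 bp on the 21 assembled chromosomes against GENCODE M21 (55413 genes, 141730 transcripts). An exact permutation test over libraries compared classes, and its paired form used the replicate number. Each library gave 1 share per class, so that the paired form compared classes within the same library. Whether equal replicate numbers link libraries of different features could not be checked. The members and lists were chosen with earlier results of these data known. Named are the 10 genes nearest to most members, every listed gene nearest to a member, members extreme in fold, width, distance, H3K4me3 or H3K27me3 and those at the limits of the rule, and 8 sequences from them. The overlap and motif code was tested on simulated data. RefSeq starts, 1 member per replicate 2 peak and a 600 bp window were alternatives chosen after seeing the data. The software was pysam 0.24.0, pandas 2.3.3, numpy 2.4.6 and scipy 1.17.1 under Python 3.11.15, with samtools 1.23.1 for the genome and matplotlib 3.10.9 for plots. Values of 1 gene of the transcription factor list are not reported here.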

Additional observations from a re-analysis of the deposited data

How the results depend on the processing

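Of 177 alternatives, 141 were counted as the same, 36 moved the value and none reversed a direction, which was counted only for differences between classes. For shares and distances, the same meant within the spread between replicates, and for the number of members within 1.5 times. For differences between classes it meant the same direction whatever the size, so that all 17 alternatives of each difference were counted as the same. The replicate block, 1 of these 17, could not change the value. Leaving out 1 replicate had to count as the same for a share, because the spread came from those same replicates. Likewise, replicate 2 as the base had to move the distance, and the replicate 2 summit had to move the motif shares. The tally is therefore partly fixed by how it was made. The number of isolated intergenic peaks fell from 1174 to 764 with a start site distance of 10 kb and to 769 with a −log10 q of at least 5. The share with an ATAC-seq peak (85.7%) was 81.4% with replicate 2 as the base, 84.9% at 10 kb, 85.3% with links of 5 kb, 87.5% with protein-coding genes only, 91.4% with a −log10 q of at least 5, 68.6% when 50% of the shorter peak had to overlap, 97.1% within 500 bp, 83.4% with lists of equal length and 90.0% with 600 bp windows. The share with H3K4me3 lay between 32.6% and 45.2%, and members stayed above gene-body and clustered peaks in ATAC-seq and H3K4me3 under every alternative run. The median distance of 14725 bp differed by an SD of only 4.95 bp between the replicates as base, and each alternative moved it by more: 14718 bp with replicate 2 as the base, 24544 bp at 10 kb, 15180 and 14120 bp with links of 5 and 25 kb, 33469 bp with protein-coding genes only, 18293 bp with all peaks linked, 14629 bp when 50% of the replicate 1 peak had to be covered, 14131 bp with a −log10 q of at least 5, 14915 bp without RefSeq starts and 14688 bp with 1 member per replicate 2 peak. The nearest gene had an H3K27ac promoter peak for 72.4% of members with a −log10 q of at least 5.

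AP-1 at the H3K27ac summit (7.92%) was 7.09% with protein-coding genes only, 8.29% with all peaks linked, 7.47% with 50% of the peak covered, 5.2% and 20.8% in windows of 200 and 500 bases, 31.7% at the ATAC-seq summit and 8.43% at the replicate 2 summit. The myogenic E-box (25.4%) was 24.8% with protein-coding genes only, 24.5% with 50% covered, 24.3% with a −log10 q of at least 5, 17.4% and 41.4% in windows of 200 and 500 bases, 45.2% at the ATAC-seq summit and 26.2% at the replicate 2 summit. With the replicate number as a block, the differences in ATAC-seq stayed at 8.69 and 14.2 points and those in H3K4me3 at 15.3 and 22.3 points, with a paired exact permutation p of 0.5, the smallest possible. The depth is unknown and a missing peak counts as absent whatever the reason, and with 2 libraries per feature no test between classes can pass 0.05.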

Other observations

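The 1603 replicate 1 peaks that met the positional rule but had no replicate 2 counterpart, and are therefore no members, had a median H3K27ac fold enrichment of 4.22 and a median width of 312 bp. An ATAC-seq peak overlapped 54.5% and 53.7% of them and an H3K4me3 peak 17.7% and 10.8%, below the 86.0% and 85.4% and the 43.4% and 32.6% of members.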
